A study of Mus musculus with 10 samples.

Results

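The 10 genes described here mark the 2 main subsets of mature splenic B cells. They are the marginal zone markers Cr2, Cd1d1, S1pr3, Cd9, Myof and Cd55, the Notch2 axis genes Notch2, Dtx1 and Hes1, and the follicular marker Fcer2a. They were chosen by symbol, and each is read by exactly 1 probe set, so 10 of 19937 genes with a single symbol are covered. Expression was measured in spleen B cells sorted as B220+CD22+ from mice of a CBAxC57BL/6J background, on 10 Affymetrix Mouse Gene 1.0 ST arrays. The 4 arrays of the delta group came from Sca1-Bcl6(delta) mice, the offspring of floxed mice crossed with mb1-Cre, a Cre active in the B lineage. The 3 floxed arrays came from Sca1-Bcl6(floxed) mice, which carry mouse Bcl6 with IRES-eGFP between loxP sites in a pLy6 vector and no Cre, and the 3 wild-type arrays from mice without the transgene. The labels name neither age nor sex, nor which of the 2 transgenic lines an array represents, nor whether each array is a separate animal, so p-values measure the spread between these arrays. A control with Cre but no transgene was not analysed here.

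Mature B cells of the spleen settle either in follicles, where they recirculate and meet T cells, or in the marginal zone, where they face blood-borne antigen. NOTCH2, activated on B cells by the ligand DLL1 of splenic stroma, is required in mice for the marginal zone fate. Its cleaved intracellular domain joins the DNA-binding protein RBPJ and Mastermind-like coactivators and switches on genes such as Dtx1 and Hes1. Marginal zone cells carry much CD21 and CD1d and little CD23, while follicular cells carry much CD23. Both subsets express B220 and CD22, so the sort does not separate them. In RNA from such a mixed population, fewer cells of a type and less RNA per cell cannot be told apart.

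RBPJ binds DNA at a site whose core is TGGGAA, so the stretch before the start of members tied to the Notch2 axis was read. RefSeq windows (GRCm38.p6) matched 8 of the 10 genes, all but Cd1d1 and Hes1, and gave 10 windows, because Fcer2a has 3 starts. Within 250 bases before the start, the core on either strand was found for 3 of the 8 genes, Cr2, Cd9 and Fcer2a (at a pair of its starts), that is in 4 of the 10 windows. Of all 32851 RefSeq windows of this length, 21.6% hold the core. The longer form GTGGGAA, which contains the core, was found in the windows of Cr2 and Cd9 and in 5.42% of all windows. A match is a description of these letters and no evidence of binding. The windows of Cr2 and Cd9 are shown because they hold the core, in capitals, and that of the Notch target Dtx1 because it holds none.
Cr2, chr1:195176720-195176969, minus strand: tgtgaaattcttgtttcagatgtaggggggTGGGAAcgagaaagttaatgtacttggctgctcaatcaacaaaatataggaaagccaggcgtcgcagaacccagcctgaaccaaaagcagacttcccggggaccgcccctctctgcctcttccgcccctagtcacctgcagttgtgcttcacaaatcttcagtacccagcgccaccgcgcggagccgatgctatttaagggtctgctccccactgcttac
Cd9, chr6:125494761-125495010, minus strand: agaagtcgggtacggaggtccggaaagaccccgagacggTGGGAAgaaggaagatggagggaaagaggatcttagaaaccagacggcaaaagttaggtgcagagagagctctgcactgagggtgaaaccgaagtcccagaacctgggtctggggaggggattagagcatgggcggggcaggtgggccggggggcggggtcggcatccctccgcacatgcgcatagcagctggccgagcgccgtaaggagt
Dtx1, chr5:120711670-120711919, minus strand: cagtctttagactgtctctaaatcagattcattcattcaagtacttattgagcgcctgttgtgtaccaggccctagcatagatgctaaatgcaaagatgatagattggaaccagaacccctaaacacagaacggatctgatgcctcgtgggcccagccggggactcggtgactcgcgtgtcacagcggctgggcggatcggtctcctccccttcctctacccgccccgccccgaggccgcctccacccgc

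The arrays were read as B cell arrays. The 7 measured of 8 B cell markers had mean log2 levels of 12.87 to 12.93 in delta, 12.94 to 13.02 in floxed and 12.94 to 13.03 in wild-type arrays. Of the 7, Cd79a, a subunit of the B cell receptor, fell by 0.48 in delta against wild-type (limma adjusted p = 0.0427), and 0 passed in the other comparisons. In delta against floxed Cd79a was at -0.40 (limma adjusted p = 0.123). Its delta arrays read 12.82 to 12.89 and its floxed arrays 13.21 to 13.35, without overlap. The median intensity of an array was 139 to 145. By Xist against Y-linked genes, 1 of 4 delta arrays (delta 1), 3 of 3 floxed arrays and 0 of 3 wild-type arrays had a male pattern, so every floxed array differs from every wild-type array in sex pattern too, and only the delta arrays let a fit hold both terms. Markers of other cells had the following summed RMA intensities. The T cell list (10 of 10 measured) summed to 915 to 1371 in delta, 1056 to 1809 in floxed and 900 to 1116 in wild-type arrays. The myeloid list (11 of 11) summed to 1722 to 2967 in delta, 2035 to 2449 in floxed and 1457 to 1615 in wild-type arrays. The dendritic cell list (8 of 8) summed to 983 to 1536, 1273 to 1676 and 925 to 1007 in the same order of groups, and the NK cell list (9 of 9) to 607 to 1014, 909 to 1001 and 572 to 662. The erythroid list (7 of 10) summed to 1260 to 2531 in delta, 2653 to 3550 in floxed and 1625 to 2611 in wild-type arrays. Follicular dendritic cells also carry CD21 and CD23 in mice, and endothelial cells S1PR3. The follicular dendritic and stromal list (9 of 10) summed to 1295 to 1351, 1199 to 1346 and 1324 to 1366, and the endothelial list (10 of 10) to 3318 to 3474, 3208 to 3525 and 3231 to 3665. RMA values have no zero, so no marker can be read as absent, and the part of these cells in the results was not tested.

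None of the 10 markers passed the threshold in any comparison. Genes were called at 0.05 in limma after Benjamini-Hochberg adjustment across the 19937 genes. By this rule 0 of 10 members were called in delta against wild-type, where 0.0752% of all genes were. The count was also 0 of 10 in floxed against wild-type, where 0.552% of all genes were called, and 0 of 10 in delta against floxed, where 0.00502% were. At an unadjusted p under 0.05 there were 3 members in delta against wild-type beside 7.89% of all genes; 1 was higher, beside 3.46% of all genes, and 2 were lower, beside 4.44%. Floxed against wild-type likewise had 3 such members, beside 12.8% of all genes, with 1 higher (beside 6.14%) and 2 lower (beside 6.63%). There were 0 in delta against floxed, beside 6.42%. Positive changes of any size were seen in 3 of 10 members in delta against wild-type (43.6% of all genes), 4 of 10 in floxed against wild-type (41.9%) and 5 of 10 in delta against floxed (52.1%). The median log2 change of the members was -0.14 in delta against wild-type, with -0.01 over all genes. It was -0.18 in floxed against wild-type, with -0.02 over all genes, and 0.02 in delta against floxed, with 0 over all genes. The 2 comparisons against wild-type share the same 3 wild-type arrays.

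**Figure D1:**
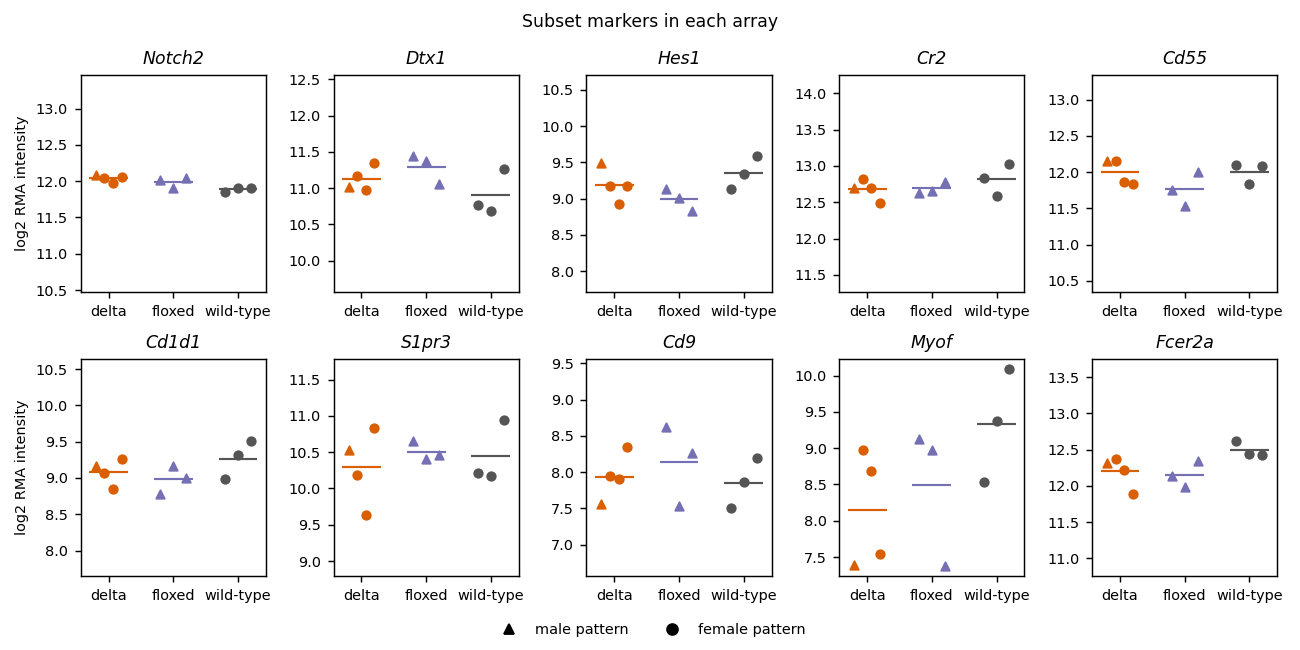
Log2 RMA intensity (y axis) of each of the 10 markers in each array, by group (x axis). Triangles are arrays of male and circles of female pattern, and horizontal lines are group means. All panels span the same height in log2 units; Notch2 has the tightest groups and Myof the widest, from 7.38 to 10.09.

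Notch2, the receptor that commits B cells to the marginal zone, had the narrowest spread of the 10 members. Its probe set (10494595) read log2 RMA levels of 12.09, 12.05, 11.98 and 12.06 in delta arrays 1 to 4, 12.01, 11.91 and 12.04 in floxed arrays and 11.85, 11.91 and 11.91 in wild-type arrays. Every delta array and every floxed array lay above every wild-type array, the nearest being floxed 2 with an intensity of 3856 and the highest wild-type array with 3851. Mean RMA intensity was 4230 ± 125 in delta arrays, 4060 ± 182 in floxed arrays and 3800 ± 91.3 in wild-type arrays (SD, n = 4, 3 and 3). Delta against wild-type gave a log2 change of 0.15 (SE 0.06, 95% CI 0.03 to 0.28, limma adjusted p = 0.503). Floxed against wild-type gave 0.10 (SE 0.06, 95% CI -0.04 to 0.23, limma adjusted p = 0.545). The intervals bound a rise of Notch2 RNA at 1.21-fold in delta and 1.17-fold in floxed against wild-type. In delta against floxed the change was 0.06 (95% CI -0.07 to 0.18).

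Dtx1, which encodes the ubiquitin ligase Deltex 1 and is a Notch target in B cells, was the member with the largest positive change. Its probe set (10533182) read 11.02, 11.16, 10.97 and 11.35 in delta 1 to 4, 11.44, 11.38 and 11.05 in floxed 1 to 3 and 10.77, 10.69 and 11.26 in wild-type 1 to 3. Wild-type 3 lay within the range of both other groups, so the groups overlap. The log2 change of Dtx1 was 0.38 in floxed against wild-type (SE 0.16, 95% CI 0.04 to 0.73, limma adjusted p = 0.332). Delta against wild-type gave 0.22 (95% CI -0.10 to 0.54, adjusted p = 0.790) and delta against floxed -0.16 (95% CI -0.49 to 0.16, adjusted p = 0.880). None of these passed the threshold. Leaving out wild-type 3 gave 0.56 in floxed against wild-type (adjusted p = 0.115).

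Hes1, a basic helix-loop-helix repressor that many cell types switch on after Notch cleavage, pointed the other way. Its probe set (10434925) read 9.49, 9.17, 8.93 and 9.17 in delta 1 to 4, 9.13, 9.01 and 8.83 in floxed 1 to 3 and 9.13, 9.34 and 9.59 in wild-type 1 to 3. Floxed and wild-type arrays met at 9.13, and delta 1 was the one delta array among the higher wild-type values. Hes1 was at -0.36 in floxed against wild-type (SE 0.14, 95% CI -0.68 to -0.05, limma adjusted p = 0.323). Delta against wild-type gave -0.16 (95% CI -0.46 to 0.13, adjusted p = 0.849) and delta against floxed 0.20 (95% CI -0.10 to 0.50, adjusted p = 0.847). Delta 1, of male pattern, lay above the other delta arrays, and with sex pattern in the fit its value for floxed against wild-type was -0.76 (SE 0.21, limma adjusted p = 0.487).

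Cr2, which encodes the complement receptors CD21 and CD35 in mice, had overlapping groups throughout. Its probe set (10361292) read 12.70, 12.82, 12.70 and 12.49 in delta, 12.63, 12.66 and 12.78 in floxed and 12.84, 12.58 and 13.03 in wild-type arrays. The extremes of the 10 arrays were delta 4 and wild-type 3. The log2 change was -0.14 (SE 0.11, 95% CI -0.37 to 0.09, limma adjusted p = 0.817) in delta against wild-type and -0.13 (SE 0.11, 95% CI -0.38 to 0.12, adjusted p = 0.686) in floxed against wild-type. The lower bounds correspond to levels 1.30-fold lower than wild-type in either group, so a larger loss of Cr2 RNA lies outside both intervals. Delta against floxed gave -0.01 (95% CI -0.25 to 0.22).

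Cd55, the decay-accelerating factor that limits complement deposition on the cell's own surface, read 12.15, 12.15, 11.86 and 11.84 in delta, 11.76, 11.54 and 12.00 in floxed and 12.10, 11.84 and 12.08 in wild-type arrays (probe set 10357488). Floxed arrays held the 2 lowest values, and floxed 3 lay among the other groups. The change was -0.24 (95% CI -0.52 to 0.05, limma adjusted p = 0.481) in floxed against wild-type, -0.01 (95% CI -0.27 to 0.26) in delta against wild-type and 0.23 (95% CI -0.04 to 0.50, adjusted p = 0.814) in delta against floxed. Cd55b, a close copy of Cd55 with a probe set of its own, was at -0.15, -0.32 and 0.16 in delta against wild-type, floxed against wild-type and delta against floxed. None of these passed, and how far the probes of the 2 copies read each other's RNA is not known.

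Cd1d1, whose product presents lipids to NKT cells and is abundant on marginal zone cells, read 9.17, 9.07, 8.85 and 9.26 in delta, 8.78, 9.16 and 9.0 in floxed and 8.98, 9.31 and 9.51 in wild-type arrays (probe set 10499160). The 2 highest values were both of wild-type arrays, but wild-type 1 lay inside both other groups. The change was -0.18 (SE 0.14, 95% CI -0.48 to 0.12, limma adjusted p = 0.820) in delta against wild-type and -0.29 (SE 0.15, 95% CI -0.61 to 0.03, adjusted p = 0.442) in floxed against wild-type. Cd1d2, its near-identical neighbour, which was picked for that likeness and lies outside the rule for named genes, was at -0.23 and -0.27 in the same 2 comparisons (adjusted p = 0.746 and 0.451). The probe sets of Cd1d1 and Cd1d2 may share signal and were not counted as separate evidence.

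S1pr3, a sphingosine 1-phosphate receptor of marginal zone B cells, varied more within groups than between them. Its probe set (10405179) read 10.53, 10.18, 9.64 and 10.84 in delta, 10.65, 10.41 and 10.46 in floxed and 10.22, 10.17 and 10.94 in wild-type arrays. Delta 3 and wild-type 3 were the ends of the range. Its change was -0.15 (95% CI -0.70 to 0.41, limma adjusted p = 0.945) in delta against wild-type and 0.07 (95% CI -0.53 to 0.66, adjusted p = 0.947) in floxed against wild-type. That small positive value was -0.07 without wild-type 2, -0.04 without wild-type 1 and 0 without floxed 1. Delta against floxed gave -0.21 (95% CI -0.77 to 0.34).

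Cd9, a tetraspanin found on marginal zone, B1 and plasma cells, read 7.56, 7.95, 7.90 and 8.34 in delta, 8.62, 7.54 and 8.27 in floxed and 7.51, 7.86 and 8.19 in wild-type arrays (probe set 10548030). Floxed 1 and 3 lay above all wild-type arrays while floxed 2 lay near the lowest. Myeloid cells and platelets also express Cd9 in mice, and the part of the higher myeloid sums given above was not tested. In floxed against wild-type Cd9 was at 0.30 (95% CI -0.29 to 0.88, limma adjusted p = 0.690), and at 0.80 with sex pattern in the fit. It was at 0.06 without floxed 1, at 0.12 without wild-type 1, at 0.60 without floxed 2 and at 0.46 without wild-type 3, and at -0.31 when floxed 2 alone stood for its group. In delta against wild-type it was at 0.09 (95% CI -0.45 to 0.63) and in delta against floxed at -0.21 (95% CI -0.75 to 0.34).

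Myof encodes myoferlin, a membrane repair and fusion protein whose RNA is enriched in marginal zone over follicular B cells. It had the largest spread of the 10 members. Its probe set (10467258) read 7.39, 8.98, 8.68 and 7.54 in delta 1 to 4, 9.12, 8.97 and 7.38 in floxed 1 to 3 and 8.53, 9.37 and 10.09 in wild-type 1 to 3. Delta 1, delta 4 and floxed 3 lay between 7.38 and 7.54, and the other 7 arrays between 8.53 and 10.09, with none between. In RMA intensity the lowest array read 167.0 and the highest 1092, and no wild-type array was among the low 3. The change of Myof was -1.18 (SE 0.51, 95% CI -2.30 to -0.07, limma adjusted p = 0.603) in delta against wild-type. Floxed against wild-type gave -0.84 (SE 0.54, 95% CI -2.04 to 0.35, adjusted p = 0.560), and -0.34 was found in delta against floxed (95% CI -1.46 to 0.77, adjusted p = 0.938). These intervals are the widest of the members: for delta against wild-type they run from 0.203-fold to 0.954-fold. Of the low arrays, delta 1 and floxed 3 were of male and delta 4 of female pattern, and floxed 1 and 2, of male pattern, were among the high arrays. With sex pattern in the fit Myof was at 0.17 (SE 0.90) in floxed against wild-type, and the part of sex was not tested further. Leaving out floxed 3 gave -0.29 in that comparison, and leaving out wild-type 3 gave -0.46, within a range of -1.24 to -0.29 over the arrays left out in turn. Among delta arrays, delta 4 was also the lowest for Cr2, Cd55 and Fcer2a but the highest for S1pr3, Cd1d1, Cd9 and Dtx1. Delta 1 was the lowest for Cd9 and the highest for Notch2 and Hes1. Among floxed arrays, floxed 3 was the highest for Cr2, Cd55, Fcer2a and Notch2 and the lowest for Dtx1 and Hes1.

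Fcer2a encodes CD23, the low-affinity IgE receptor that is abundant on follicular and scarce on marginal zone B cells. Its probe set (10576757) read 12.32, 12.37, 12.22 and 11.89 in delta 1 to 4, 12.13, 11.98 and 12.34 in floxed 1 to 3 and 12.62, 12.44 and 12.42 in wild-type 1 to 3. All 7 delta and floxed arrays lay below all 3 wild-type arrays, with 12.37 in delta 2 the nearest. Mean RMA intensity was 4750 ± 673 in delta arrays, 4560 ± 573 in floxed arrays and 5770 ± 452 in wild-type arrays (SD, n = 4, 3 and 3). Fcer2a was at -0.29 in delta against wild-type (SE 0.12, 95% CI -0.55 to -0.03, limma adjusted p = 0.573) and at -0.34 in floxed against wild-type (SE 0.13, 95% CI -0.62 to -0.06, adjusted p = 0.284). Delta and floxed arrays differed by 0.05 (95% CI -0.21 to 0.31). Fcer2a therefore stood 0.817-fold and 0.788-fold of wild-type in delta and floxed, without passing the threshold.

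Notch2 and Fcer2a were the members whose groups did not overlap against wild-type. That is 2 of 10 members in delta against wild-type, beside 9.25% of all genes, and 2 of 10 in floxed against wild-type, beside 16.7% of all genes. By direction, 1 was higher (3.75% of all genes in delta and 7.60% in floxed) and 1 lower (5.50% and 9.13%). With 10 members, such counts lie close to these shares. Delta and floxed arrays were apart for 0 of 10, beside 6.96% of all genes.

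**Figure D2:**
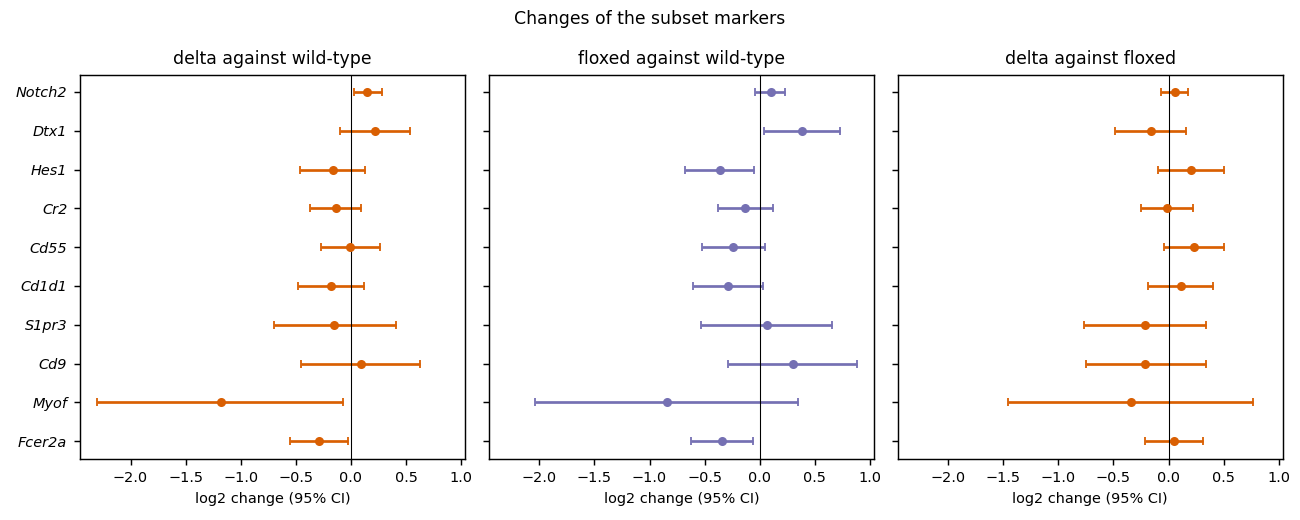
Log2 change (x axis) of each marker (y axis) in delta against wild-type, floxed against wild-type and delta against floxed; points are limma estimates and bars 95% confidence intervals (CI). Most intervals cross 0, that of Notch2 is the narrowest and that of Myof the widest; no change passed the adjusted threshold.

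Log2 ratios between members were also read within each array and set against the wild-type mean. Notch2 over Fcer2a stood at 0.37, 0.27, 0.36 and 0.77 in delta 1 to 4, at 0.48, 0.54 and 0.30 in floxed 1 to 3 and at -0.17, 0.07 and 0.09 in wild-type 1 to 3. All delta and floxed arrays were above all wild-type arrays in this ratio, as they were for Notch2 alone. For Fcer2a alone they were below them, so this ratio was bound to separate the groups and adds nothing to the single genes. Dtx1 over Hes1, both Notch targets, stood at -0.03, 0.44, 0.48 and 0.63 in delta, at 0.76, 0.81 and 0.66 in floxed and at 0.09, -0.21 and 0.12 in wild-type arrays. Floxed arrays were above both other groups, and delta 1 was the delta array within the wild-type range. Dtx1 over Fcer2a, at 0.29 to 1.05 in delta, 0.29 to 0.99 in floxed and -0.27 to 0.43 in wild-type arrays, overlapped. Of the 45 pairs of members, 3 had ratios that did not overlap in delta against wild-type, beside 9.76% of all pairs of genes on the array. The count was 8 in floxed against wild-type, beside 17.9% of all pairs, and 1 in delta against floxed, beside 6.97%. Notch2 over Fcer2a is among the counted pairs in both comparisons against wild-type. The 45 ratios share 10 genes and are not independent. The pairs given by array were chosen after their values were seen and were given no test.

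**Figure D3:**
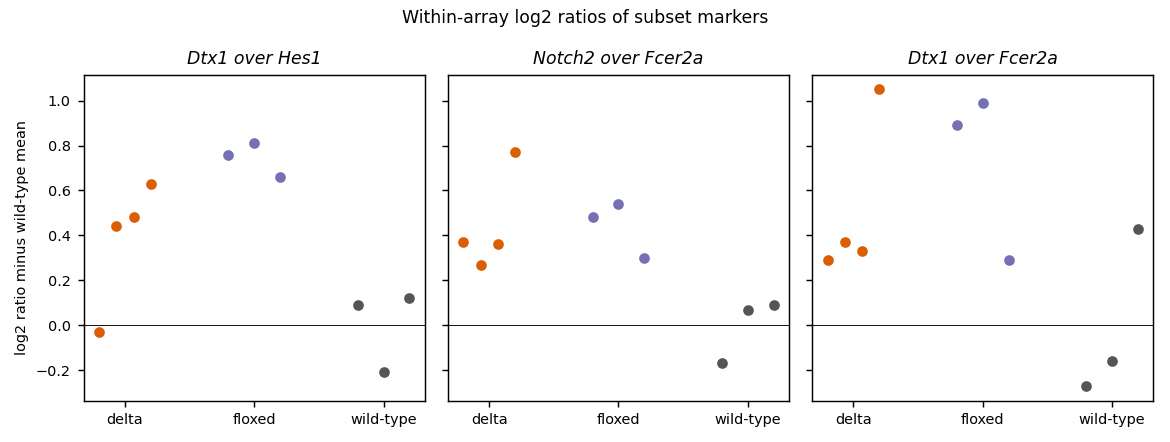
Within-array log2 ratio minus its wild-type mean (y axis) for 3 pairs of markers, 1 point per array, by group (x axis). Dtx1 over Hes1 lies at 0.66 to 0.81 in floxed arrays and at -0.21 to 0.12 in wild-type arrays; Dtx1 over Fcer2a overlaps between groups.

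Agreement between members across the 10 arrays was uneven. Over the 45 pairs of members Pearson's r of log2 levels had a median of 0.092 and was positive in 27, from -0.744 for Dtx1 with Fcer2a to 0.709 for Fcer2a with Cd55. After subtraction of group means the median was 0.16 and r was positive in 33, with -0.601 for Dtx1 with Fcer2a and 0.811 for Fcer2a with Cd55. Within groups S1pr3 had r of 0.736 with Dtx1, 0.691 with Hes1, 0.655 with Cd1d1 and 0.551 with Notch2, but 0.0595 with Cr2 and -0.13 with Myof. These values describe 10 arrays of mixed groups that share the same normalization, and carry no test. With predicted genes left out, the genes most like Dtx1 over the 10 arrays were Surf2, Zfp64 and Adipor1 (r = 0.952, 0.925 and 0.924). Those most like Fcer2a were Brd7, Cd24a and Snord42b (r = 0.971, 0.939 and 0.936). All were picked for the highest r among the genes of the array, so high values follow from the search and carry no test. The levels of Brd7 and Cd24a follow Fcer2a for the same reason and are no separate result. Brd7, a bromodomain protein gene, read 9.73 to 9.92 in delta, 9.78 to 9.89 in floxed and 9.99 to 10.06 in wild-type arrays. Cd24a, the heat-stable antigen of immature and some mature B cells, read 11.85 to 12.36 in delta, 12.04 to 12.45 in floxed and 12.29 to 12.51 in wild-type arrays.

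Around the members, the Notch pathway was read by role, leaving out the 3 members. Of the other receptors and ligands, 0 of 8 passed in any comparison. The ligand gene Dll1 was at 0.34 (limma adjusted p = 0.100) and Notch3 at 0.04 in floxed against wild-type, and Dll1 was at 0.13 and Jag2 at -0.07 in delta against wild-type. Dll1 read 6.92 to 7.14 in delta, 7.13 to 7.32 in floxed and 6.75 to 6.97 in wild-type arrays. Whether B cells are the source of this signal was not tested. Delta against floxed gave -0.22 for Dll1 and 0.09 for Dll4. At an unadjusted p under 0.05 the list held 0, 1 and 1 gene in delta against wild-type, floxed against wild-type and delta against floxed. Over all genes the shares were 7.89%, 12.8% and 6.42% in the same order, and they stand beside the counts of the later lists too. Among 13 measured genes for processing and fringe modification 0 passed. Psen2, a gamma-secretase subunit gene, was at 0.13 in delta and 0.18 in floxed against wild-type. Lfng, a fringe glycosyltransferase that tunes the response of NOTCH2 to DLL1, was at 0.09 in delta and -0.15 in floxed against wild-type. Delta against floxed gave 0.24 for Lfng and -0.17 for Aph1a (adjusted p = 0.641 and 0.726). At an unadjusted p under 0.05 were 1 gene in delta and 1 in floxed against wild-type, and in delta against floxed 1 higher and 1 lower.

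In the nuclear complex 1 of 9 genes passed, in floxed against wild-type. Maml3, a Mastermind-like coactivator of the Notch transcription complex, read 7.82, 7.43 and 7.95 in floxed arrays and 8.37, 8.56 and 8.32 in wild-type arrays. All floxed arrays lay below all wild-type arrays, and Maml3 fell by 0.68 on the log2 scale (SE 0.13, limma adjusted p = 0.0460). Delta arrays read 8.02, 8.27, 8.09 and 7.94, between the other groups apart from an overlap with floxed 3, with a change of -0.33 against wild-type (adjusted p = 0.500). The call was near the threshold and ended in 12 of 21 alternatives, among them the omission of floxed 1, 2 or 3, of wild-type 1, 2 or 3 or of delta 1 or 3. With sex pattern in the fit Maml3 was at -0.61 (SE 0.23, adjusted p = 0.635), and over the 21 alternatives the adjusted p ran from 0.0225 to 0.635. With arrays left out its change stayed at -0.79 to -0.53. Of the other members of the complex, 8 did not pass. Rbpj, the DNA-binding subunit, read 9.06 to 9.31 in delta, 9.24 to 9.43 in floxed and 8.81 to 9.13 in wild-type arrays. All floxed arrays of Rbpj lay above all wild-type arrays, with 0.37 in floxed against wild-type (limma adjusted p = 0.122). Its delta arrays overlapped wild-type, with 0.23 (limma adjusted p = 0.556). At an unadjusted p under 0.05 the complex had 1 gene higher and 1 lower in delta and likewise in floxed against wild-type, and 1 higher in delta against floxed. Between delta and floxed Maml3 was at 0.35 and Maml2 at 0.15. Of 9 measured target genes other than Dtx1 and Hes1, 0 passed in any comparison. Hes5 was at -0.16 in delta and -0.13 in floxed against wild-type, and Dtx4 at 0.19 and 0.31. Between delta and floxed Hey1 was at 0.16 and Dtx4 at -0.12. At an unadjusted p under 0.05 was 1 target in delta and 1 in floxed against wild-type, and 0 in delta against floxed. The 4 Notch lists had medians between -0.10 and 0.01 against wild-type and between -0.03 and 0.04 in delta against floxed.

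**Figure D4:**
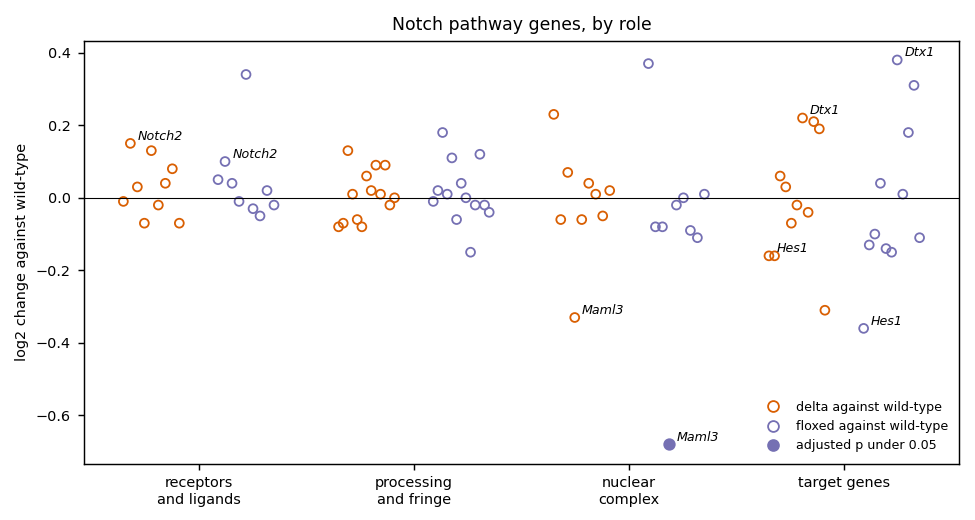
Log2 change against wild-type (y axis) of Notch pathway genes, members included, by role (x axis), for delta and floxed; each point is a gene and filled points passed an adjusted p of 0.05. Maml3 in floxed, at -0.68, is the filled point.

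Further marginal zone genes from a list of 17, 16 of them measured, gave 1 call in floxed against wild-type and 0 in the other comparisons, with medians of -0.04 in delta and -0.08 in floxed against wild-type. The call was Fcrl5, an Fc receptor-like gene of marginal zone and atypical B cells, which read 10.72 to 10.90 in floxed and 9.58 to 10.05 in wild-type arrays. Fcrl5 rose by 1.07 (SE 0.18, limma adjusted p = 0.0282) in floxed, and was at 0.71 (adjusted p = 0.187) in delta against wild-type and at -0.36 in delta against floxed. The call of Fcrl5 ended in 7 of 21 alternatives, including the omission of floxed 1, 2 or 3 or of wild-type 1 or 2 and the fit with sex pattern. Its change stayed at 0.98 to 1.22 with arrays left out and was 1.40 with sex pattern. Cd36, a scavenger receptor gene of marginal zone cells, pointed the opposite way. It read 9.10, 9.25, 8.48 and 8.35 in delta, 9.05, 9.29 and 9.03 in floxed and 9.69, 9.51 and 9.94 in wild-type arrays. All delta and floxed arrays lay below all wild-type arrays, with a change of -0.92 (SE 0.20, adjusted p = 0.174) in delta against wild-type. Bhlhe41 was at -0.64 in delta against floxed, but at 1.37 in floxed and 0.74 in delta against wild-type (limma adjusted p = 0.153 and 0.675). At an unadjusted p under 0.05 the list held 2 higher and 1 lower in delta and 3 higher and 2 lower in floxed against wild-type. In delta against floxed it held 0 higher and 1 lower.

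Of 10 measured follicular genes other than Fcer2a, 1 passed in floxed against wild-type. Itgb7, an integrin subunit gene for gut homing, read 9.97 to 10.11 in floxed and 9.56 to 9.69 in wild-type arrays, a rise of 0.43 (SE 0.08, limma adjusted p = 0.0445). This call ended in 12 of 21 alternatives, including the omission of any floxed or wild-type array and of delta 2 or 3, while the change stayed at 0.39 to 0.48 with arrays left out and was 0.59 with sex pattern. In delta against wild-type Itgb7 was at 0.34 and Cd72 at 0.40 (adjusted p = 0.174 and 0.516), and in delta against floxed Cd72 was at -0.28 and Ccr7 at 0.22. At an unadjusted p under 0.05 the list held 2 higher and 0 lower in each comparison against wild-type, and 0 in delta against floxed. The list median was 0.01 in delta and -0.04 in floxed against wild-type. Fcer2a, at -0.29 and -0.34, thus lay below the median of the other follicular genes, a difference that was not tested.

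Transitional B cells are the precursors of both subsets. A list of 9 genes of transitional and earlier B cell stages was read, of which 1 passed. It held Cd93, Vpreb3, Rag1, Rag2, Sox4, Lef1, Erg, Ly6d and Il7r. These genes do not mark transitional cells alone, so the list is no measure of the number of such cells. Cd93, the AA4 marker of transitional cells, read 6.57 to 6.92 in floxed and 7.77 to 8.88 in wild-type arrays and fell by 1.58 (SE 0.26, limma adjusted p = 0.0282). The call of Cd93 ended in 8 of 21 alternatives, including the omission of floxed 1, 2 or 3 or of wild-type 1 or 2 and the fit with sex pattern. Its change stayed at -1.85 to -1.29 with arrays left out and was -1.69 with sex pattern. In delta against wild-type Cd93 was at -1.30 and Lef1 at -0.61 (adjusted p = 0.122 and 0.0968). At an unadjusted p under 0.05 the list held 0 higher and 4 lower of 9 (Cd93, Vpreb3, Sox4 and Lef1) in each comparison against wild-type. Over all genes 4.44% were lower in delta and 6.63% in floxed. Delta against floxed held 0 higher and 1 lower. The list median was -0.28 in delta and -0.41 in floxed against wild-type. Its mean lay 0.31 to 0.75 below the wild-type mean in delta arrays and 0.36 to 0.51 below it in floxed arrays. Set against floxed, delta had Il7r at -0.98 and Sox4 at 0.18, with a list median of 0. Il7r read 5.73 to 6.17 in delta and 6.01 to 7.61 in floxed arrays. The part of the T cell sums given above was not tested for this gene.

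The partners and relatives of single members gave no call. Among 9 measured coreceptor and complement regulator genes, the complement inhibitor gene Cd59a was at 0.46 in delta and 0.59 in floxed against wild-type (limma adjusted p = 0.608 and 0.266). Ifitm1 was at -0.16 in delta against wild-type, and Cr1l at 0.14 and Cd81 at -0.10 in delta against floxed. Among 11 tetraspanin genes related to Cd9, Tspan31 was at 0.29 in delta and 0.60 in floxed against wild-type (adjusted p = 0.556 and 0.0613), and Cd82 at 0.20 and 0.34. Delta against floxed gave -0.31 for Tspan31 and -0.22 for Tspan33. Among 8 genes of sphingosine 1-phosphate receptors and metabolism, S1pr5 was at 0.55 in delta and 0.80 in floxed against wild-type (adjusted p = 0.623 and 0.223). The part of the NK cell sums given above was not tested for S1pr5. Sgpl1, the lyase that degrades the ligand, was at 0.15 and 0.29 in the same comparisons, and at -0.15 in delta against floxed, where the exporter gene Spns2 was at 0.20. At an unadjusted p under 0.05, delta against wild-type held 1 gene of each of these 3 lists, beside 7.89% of all genes. Floxed against wild-type held 1 coreceptor and complement gene and 3 tetraspanin genes, beside 12.8% of all genes. Of the sphingosine list it held 2 higher and 1 lower. Delta against floxed held 0 coreceptor and complement genes, 2 tetraspanin genes and 1 sphingosine gene, beside 6.42% of all genes.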

How the data were processed

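The authors deposited 1 intensity per probe set and array, made with RMA per the submitters' processing notes and on a linear scale by its range (4.46 to 26808). RMA corrects background, normalizes between arrays and summarises probes; the sources used here do not name its software, version or annotation build. Log2 of each value was taken. Of 34760 probe sets, 21640 had exactly 1 symbol, 1321 several and 11799 none. A gene took its brightest probe set, which left 19937 genes; 21553 single-symbol probe sets matched the RefSeq table by gene ID and 0 symbols changed. No filter on dim genes was applied in the reported fit, and all 10 members stayed in under one. limma 3.58.1 in R 4.3.3 fitted a mean per group over all 10 arrays, with eBayes (11.3 total degrees of freedom), two-sided, and Benjamini-Hochberg adjustment over all genes. The number of arrays limits precision. SD is between arrays of a group, SE and CI come from the fit, and groups that do not overlap have every array of one beyond every array of the other. Sex pattern was read from Xist against Eif2s3y, Kdm5d and Uty. The fit was tested on simulated data. The members, lists and alternatives were chosen with earlier results of these data known. The rule for named genes gave all members, up to 4 called genes of each list, otherwise the 2 smallest p-values as values, and the 3 genes most correlated with Dtx1 and with Fcer2a. Predicted genes (Gm, Rik and LOC names) were left out of the choice by correlation. Marker lists are given as levels, and Cd79a, the B cell marker that was called, with its test. Same-numbered arrays did not deviate together (r from -0.083 to 0.12), so no pairing was used.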

Additional observations from a re-analysis of the deposited data

How the results depend on the processing

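The count of called members stayed at 0 in all 3 comparisons under all 21 alternatives. The count over all genes, 110 in floxed against wild-type, was 178 with arrays centred on their medians, 208 with array weights, 193 with the 2 groups alone, 6 with floxed 2 as the sole floxed array, 188 with the replicate block, 2 with sex pattern as a covariate, and 18 to 240 with each array left out in turn. In delta against wild-type the 15 calls were 3 with centring, 0 with every probe set, 9 with a trend and robust prior, 0 with the 2 groups alone, 0 with floxed 2 as the sole floxed array, 6 with the replicate block, 3 with sex pattern, and 0 to 23 with arrays left out. In delta against floxed the 1 call was 3 with the trend and robust prior, 2 with the 2 groups alone, 2 with the replicate block, and 1 to 10 with arrays left out. The cause of these shifts was not tested; fewer arrays or an added covariate leave fewer degrees of freedom.

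Signs turned for Myof, S1pr3, Cd9, Cd55, Cr2, Cd1d1 and Fcer2a. With floxed 2 as the sole floxed array, S1pr3 was at -0.03 and Cd9 at -0.31 in floxed against wild-type, and Cr2 was at 0.01, Cd1d1 at -0.07 and Cd9 at 0.40 in delta against floxed. With sex pattern, S1pr3 was at -0.24 and Myof at 0.17 (SE 0.90) in floxed against wild-type, and Cr2 at 0 and S1pr3 at 0.02 in delta against floxed. With quantile normalization again Cd55 was at 0 in delta against wild-type and Cr2 at 0.02 in delta against floxed; with centring Cd55 was at 0.01, and with array weights Cr2 was at 0.02. With the replicate block, Cd9 was at -0.05 and Cd55 at 0.05 in delta against wild-type, and Cr2 at 0.05 in delta against floxed; it ended the calls of Maml3 (adjusted p = 0.0771) and Itgb7 (adjusted p = 0.0668) in limma and no call of a member. With arrays left out, S1pr3 ran from -0.07 to 0.31 in floxed against wild-type, -0.33 to 0.10 in delta against wild-type and -0.39 to 0.01 in delta against floxed. Cd9 ran from -0.08 to 0.26 and Cd55 from -0.09 to 0.05 in delta against wild-type. Cd9 ran from -0.51 to 0.03, Cr2 from -0.06 to 0.05 and Fcer2a from -0.03 to 0.16 in delta against floxed. Directions of Dtx1, Hes1 and Notch2 held in all 3 comparisons under all 21 alternatives. Those of Fcer2a, Cr2 and Cd1d1 held likewise in both comparisons against wild-type. Some of these values came near 0, so a held sign says little about them. Notch2 was as low as 0.02 in floxed against wild-type and in delta against floxed. Cr2 came to -0.02 in floxed against wild-type.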
